A study of Mus musculus with 16 samples.

Results

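Collagen chain genes are the genes that encode the alpha chains of the collagens, and they were taken as every row of the Gene column whose symbol is Col, a number, the letter a and a number, with reads in at least 1 of the 12 libraries. The rule found 44 genes among the 24421 of the tables. They fall into 11 fibrillar chains, 6 basement membrane chains (type IV) and 27 other chains. The libraries were made from mRNA of the somatosensory cortex of mice aged 2 to 3 months. Wildtype mice (WT) were C57BL/6 by the labels and C57/BL6J by the methods, and AcPb-/- mice were homozygous for the loss of AcPb, the neuron-specific isoform of the interleukin-1 receptor accessory protein, from a bred colony. Mice of both genotypes were either undisturbed (controls) or kept awake by gentle handling from ZT20 to ZT4, an 8 h sleep disruption (SD), and all were killed at ZT4, 4 h after light onset. Each of the 4 groups had 3 libraries in the tables: CTL-WT 01, 02 and 03, SD-WT 01, 02 and 04, CTL-AcPbKO 03, 04 and 05, and SD-AcPbKO 02, 03 and 04. Of the 16 samples in the labels, the other 4 were not analysed here.

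Collagens are built from 3 alpha chains wound into a triple helix, and each type has its own set of chains. Fibrillar chains form the rope-like fibrils of connective tissue. In brain these lie mainly in the meninges and around larger vessels. Type IV chains form the sheet-like network of the basement membrane that lies under the endothelium of every brain vessel. The other chains include fibril-associated collagens, the beaded filaments of type VI, short network chains and transmembrane collagens, and some of these are made by neurons and glia.

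Reads counted on genes ranged from 26504840 to 41615582 in the 6 control libraries and from 58770286 to 71857505 in the 6 SD libraries, so depth differed between treatments. The 44 chains together had 18118 to 60876 reads. All 44 chains had reads in every library, between 1 and 8787, and 43 of them had a mean normalized count of at least 10. The labels call all mice male, but CTL-WT 02 and 03 and CTL-AcPbKO 04 and 05 had 25352 to 39358 reads of Xist, the RNA of the inactive X chromosome, and at most 2 reads of Y-linked genes, whereas the other 8 libraries had 5 to 13 reads of Xist. These 4 libraries are all controls, so the SD difference of each chain called, and the count of each list, is also given without them. Without them a single control is left in each genotype, and it is assumed to vary like the other groups. SD-AcPbKO 04 stood apart in choroid plexus genes, whose summed normalized count was 18228 there and 322 to 603 elsewhere. The gene of the targeted protein, Il1rap, had 1476 to 2062 normalized counts in every library, so counts per gene do not check the loss of 1 isoform. Litters and collection days of the mice are not given in the sources used here. In bulk tissue, fewer cells of a type and less RNA per cell cannot be told apart.

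The 6 type IV genes lie as 3 pairs that face away from each other, a layout in which each pair is transcribed outward from a shared stretch of DNA. On GRCm38, Col4a1 (ENSMUSG00000031502, minus strand) and Col4a2 (ENSMUSG00000031503, plus strand) meet on chromosome 8, where their first exons overlap by 22 bases. This is the stretch at chr8:11312805-11312826, shown because both genes start within it, on the plus strand.
Col4a1 and Col4a2, shared first bases: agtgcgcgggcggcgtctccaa
The starts of Col4a3 and Col4a4 are 72 bases apart on chromosome 1, and those of Col4a5 and Col4a6 are 1309 bases apart on the X chromosome.

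The stretches just before the start of 5 chains follow, from RefSeq on GRCm38.p6, with the build's coordinates. They run back from the start but leave out letters that lie in an exon annotated by GENCODE, which drops 34 bases next to the start of Col4a5 and 1 base for Col8a2. For Col25a1 the GENCODE gene begins at chr3:130131501, upstream of the RefSeq start used here. Its stretch therefore lies inside that gene, before a later start. Col4a5 and Col4a6 are shown as a divergent pair of which the first was past the threshold after SD in both genotypes. Col3a1 and Col25a1 are shown as chains that were lower and higher after SD in both genotypes, and Col8a2 as the chain with the largest log2 difference in WT mice. Capitals mark 3 short motifs on either strand. They are TATAAA, known as the TATA box, and CCAAT, the site of the factor NF-Y. The last is GGGCGG, the GC box, which reads CCGCCC on the other strand. The Col4a5 stretch is at chrX:141475169-141475384 (plus strand), that of Col4a6 at chrX:141474077-141474326 (minus strand), that of Col3a1 at chr1:45311288-45311537 (plus strand), that of Col8a2 at chr4:126286544-126286792 (plus strand) and that of Col25a1 at chr3:130180595-130180844 (plus strand).
Col4a5: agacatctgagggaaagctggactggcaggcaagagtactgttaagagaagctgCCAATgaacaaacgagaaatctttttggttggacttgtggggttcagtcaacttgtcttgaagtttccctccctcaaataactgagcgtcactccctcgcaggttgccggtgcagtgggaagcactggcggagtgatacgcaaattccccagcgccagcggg
Col4a6: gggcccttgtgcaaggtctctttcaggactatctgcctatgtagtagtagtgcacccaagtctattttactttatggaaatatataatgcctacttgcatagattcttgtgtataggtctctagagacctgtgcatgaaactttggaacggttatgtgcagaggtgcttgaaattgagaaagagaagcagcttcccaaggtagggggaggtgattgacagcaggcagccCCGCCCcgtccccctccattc
Col3a1: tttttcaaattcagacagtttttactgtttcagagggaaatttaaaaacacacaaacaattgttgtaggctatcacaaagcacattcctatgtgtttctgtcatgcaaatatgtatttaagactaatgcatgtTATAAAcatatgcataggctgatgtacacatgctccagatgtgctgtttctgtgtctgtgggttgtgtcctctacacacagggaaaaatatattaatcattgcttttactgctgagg
Col8a2: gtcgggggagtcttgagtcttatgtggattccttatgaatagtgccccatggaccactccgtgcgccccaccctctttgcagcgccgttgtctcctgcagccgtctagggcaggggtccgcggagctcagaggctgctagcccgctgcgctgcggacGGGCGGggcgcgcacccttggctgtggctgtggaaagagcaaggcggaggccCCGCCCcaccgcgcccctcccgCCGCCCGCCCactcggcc
Col25a1: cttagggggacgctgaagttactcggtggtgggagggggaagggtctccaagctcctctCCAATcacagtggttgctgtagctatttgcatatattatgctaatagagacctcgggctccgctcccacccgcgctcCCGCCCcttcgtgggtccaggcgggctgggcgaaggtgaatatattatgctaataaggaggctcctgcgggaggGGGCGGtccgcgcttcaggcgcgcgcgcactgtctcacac
Among 32851 mouse promoters, TATAAA was found in 12.4% of the 250 bases before the start, CCAAT in 33.8% and GGGCGG in 32.7%. Of the 5 stretches, TATAAA was present in that of Col3a1 alone, with a GC content of 35.2%. The Col8a2 stretch held GGGCGG 4 times, 2 of them overlapping, with a GC content of 69.9%. The 34 bases not shown for Col4a5 hold 1 GGGCGG, which counts in the shares over 250 bases. A match is a description of the letters and not of a site in use. Promoter sequences were found for 35 of the 44 chains.

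Levels between chains were compared as normalized counts per kb of exon, averaged over the 12 libraries. The highest was Col4a2 with 726 per kb, followed by Col6a1 with 634, Col4a1 with 474 and Col19a1 with 448. Col4a1 and Col4a2 are the partner chains of the common basement membrane network, Col6a1 is a chain of the type VI filaments, and Col19a1 is a fibril-associated chain known from interneurons. The fibrillar chain with the highest level per kb was Col5a1 at 263, above Col11a2 at 141 and Col1a1 at 95.4. The lowest level per kb was that of Col10a1, a chain of growth-plate cartilage, at 2.82. Every chain overlapped its neighbour in this order across the libraries, so the order is not resolved step by step. With the longest transcript in place of all exons, 8 chains moved by more than 3 places. Of all collagen reads, type IV chains took 26.2%, fibrillar chains 25.2% and the other chains 48.5%.

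**Figure D1:**
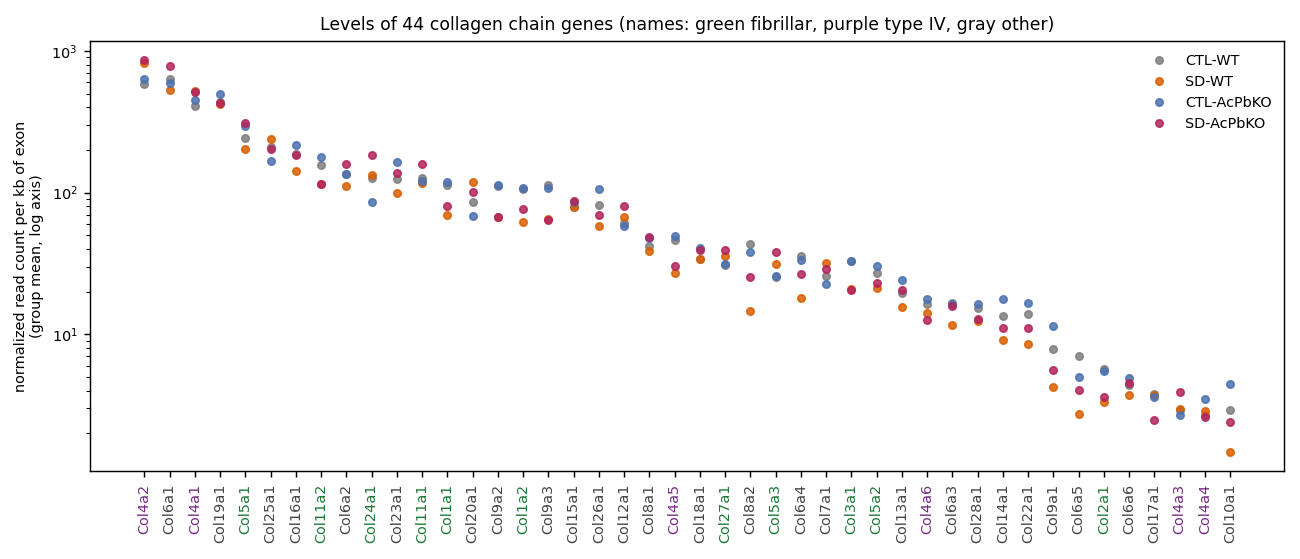
Normalized read count per kb of exon (log axis) for the 44 collagen chain genes, ordered by their mean over 12 libraries, with 1 point for the mean of each group of 3. Levels run from 726 per kb for Col4a2 to 2.82 per kb for Col10a1.

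In WT mice, SD was followed by lower transcript levels of most collagen chains that passed the test and by higher levels of the main basement membrane pair. By limma, 19 of 44 chains had an adjusted p under 0.05, 4 of them higher and 15 lower after SD, where 25.4% of all genes tested passed (13.2% higher and 12.2% lower). Of the 11 fibrillar chains, 5 fell and 0 rose. Of the 6 type IV chains, 2 rose and 1 fell, and of the 27 other chains 2 rose and 9 fell. The median log2 difference was -0.28 over the 44 chains and -0.0039 over all genes. Between groups, 20 chains did not overlap, against 40.2% of all genes. DESeq2 and edgeR on recovered reads called 18 and 20 chains, where each called 26.3% of all genes.

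Among AcPb-/- mice 18 of 44 chains passed, 8 higher and 10 lower after SD, where 27.4% of all genes passed (14.1% higher and 13.3% lower). Fibrillar chains divided into 3 that rose and 4 that fell, type IV chains into 1 and 1, and other chains into 4 and 5. The median log2 difference was -0.21 over the chains and 0.014 over all genes. Between groups, 23 chains did not overlap, against 42.3% of all genes. DESeq2 and edgeR each called 20 chains, and 28.3% and 27.6% of all genes.

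Libraries with Xist reads bear on both counts. Leaving them out keeps a single control in each genotype, which lowers the power for every gene. The shares of all genes that passed in these fits are not given here, so a drop in the count is not a result about collagen chains. In a fit of all groups with a term for these libraries, 12 chains passed in WT mice and 11 in AcPb-/- mice. Without these libraries, 2 passed in WT mice (Col4a1 higher and Col4a5 lower) and 3 in AcPb-/- mice (Col4a5, Col9a2 and Col2a1, all lower). All 19 and all 18 chains of the main counts kept the sign of their difference in both fits.

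Without the libraries with Xist reads, the chains that lost their call had an adjusted p of 0.0528 to 0.453 in WT and 0.067 to 0.712 in AcPb-/- mice. Fibrillar differences in WT mice were then -0.75 for Col1a1, -0.65 for Col1a2, -1.03 for Col2a1, -0.84 for Col3a1 and -0.29 for Col11a2. Type IX differences were -0.59, -0.61 and -0.99 for Col9a1, Col9a2 and Col9a3. Those of the other chains were -0.56 for Col6a3, -1.86 for Col6a5, -1.30 for Col8a2, -0.30 for Col16a1, 0.40 for Col20a1, -0.77 for Col22a1, 0.26 for Col25a1 and -0.23 for Col26a1. Of these, Col26a1 (-0.48 with all libraries) shrank by over 1.5 times.

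In AcPb-/- mice more of the called chains shrank by over 1.5 times when these libraries were left out, and most of those were chains that had risen. Col3a1, lower after SD, went from -0.68 to -0.39. Of the higher chains, Col5a3 went from 0.59 to 0.25, Col11a1 from 0.39 to 0.19, Col12a1 from 0.46 to 0.26 and Col20a1 from 0.58 to 0.29, and Col4a2 and Col24a1, described with their counts, did so too. The remaining values without these libraries were -0.53 for Col1a1, -0.48 for Col5a2, 0.23 for Col7a1, -0.78 for Col9a1, -0.85 for Col9a2, -0.91 for Col9a3, -0.78 for Col11a2, -0.68 for Col14a1, 0.25 for Col25a1 and -0.55 for Col26a1.

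Among basement membrane chains, the abundant pair Col4a1 and Col4a2 and the X-linked chain Col4a5 moved in opposite directions. Normalized counts of Col4a2 in WT mice were 3615, 4200.2 and 3742 in controls and 5648, 5896 and 4845 after SD, and in AcPb-/- mice 4845, 3916 and 3861 in controls and 5812, 5750.1 and 5500.3 after SD. Groups did not overlap in either genotype, and Col4a2 rose in both (log2 difference ± standard error 0.50 ± 0.085, adjusted p = 0.00273 in WT and 0.45 ± 0.088, adjusted p = 0.00718 in AcPb-/- mice). The highest control was CTL-AcPbKO 03, a library without Xist reads. Without the libraries with Xist reads its differences were 0.59 (adjusted p = 0.0528) and 0.23 (adjusted p = 0.225).

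Its partner Col4a1 had counts of 2863, 3210.0 and 3070.0 in controls and 3944, 3943 and 3744 after SD in WT mice. All 3 SD libraries lay above the controls, and Col4a1 rose (0.35 ± 0.062, adjusted p = 0.00346), also without the libraries with Xist reads, where the difference was 0.44 (adjusted p = 0.0439). The AcPb-/- counts were 3725, 3274 and 3169 in controls and 3796, 4039 and 3689.8 after SD, where CTL-AcPbKO 03 lay within the SD range and the difference did not pass (0.19 ± 0.073, adjusted p = 0.0938). Leaving out that 1 control, the only AcPb-/- control without Xist reads, brought it past the threshold. The controls kept in that fit all have Xist reads. By limma with a term for libraries with Xist reads the difference was 0.16 (adjusted p = 0.196). Without those libraries it was 0.047.

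Col4a5 encodes a chain of the less common type IV networks. Its counts were 318, 313 and 297 in controls and 200.2, 176 and 167 after SD in WT mice and 313, 314 and 362 in controls and 199, 204 and 204 after SD in AcPb-/- mice, so every SD library was far below every control. Col4a5 fell in both (-0.77 ± 0.11, adjusted p = 0.00147 and -0.70 ± 0.11, adjusted p = 0.00272). As the gene is X-linked, the controls without Xist reads matter here: they had 318 and 313 counts, within the 297 to 362 of the controls with such reads. Without the latter the differences were -0.81 (adjusted p = 0.0439) and -0.62 (adjusted p = 0.0413).

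The neighbour of Col4a5, Col4a6, had 109, 129.6 and 153 in controls and 115, 109.5 and 111 after SD in WT mice and 123, 136 and 164 in controls and 105, 109.9 and 85.8 after SD in AcPb-/- mice. SD libraries were inside the control range in WT mice and below it in AcPb-/- mice, and neither difference passed (-0.21 ± 0.16, adjusted p = 0.383 and -0.48 ± 0.17, adjusted p = 0.0734). Col4a3 and Col4a4, the partners of Col4a5 in the kidney filter, were low at 15.9 to 47.5 and 20.3 to 42.4 normalized counts and did not pass in either genotype. Exons of Col4a3 overlap those of C430014B12Rik on the other strand, and whether counting used the strand is not given in the sources used here.

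**Figure D2:**
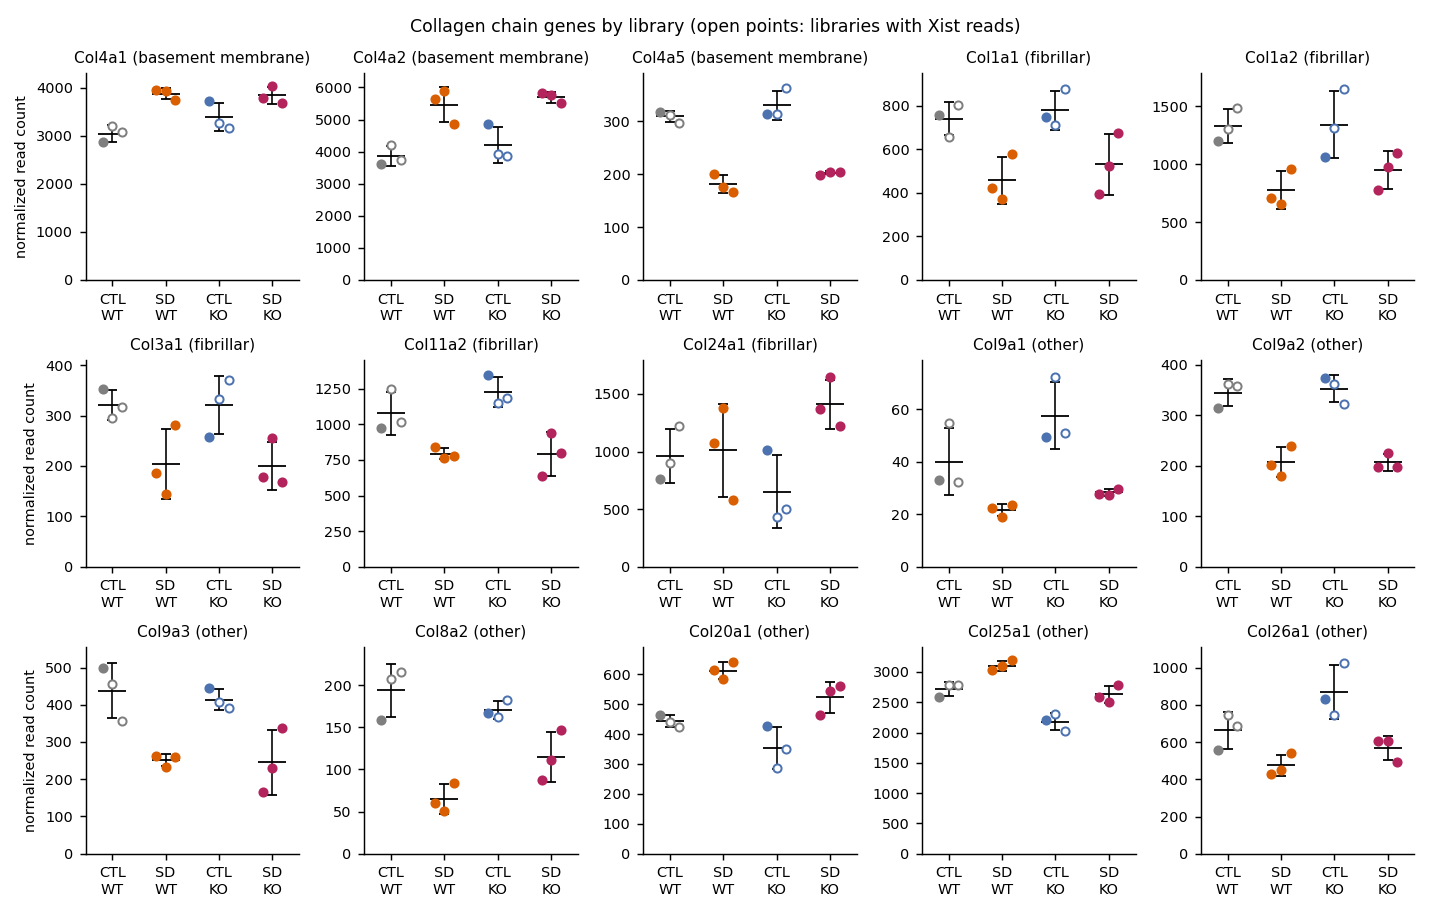
Normalized read counts (axes from 0) of 15 collagen chain genes in the 12 libraries, with 3 points per group, open for libraries with Xist reads, and black bars for the group mean ± standard deviation. Col4a2 lies higher after SD in both genotypes, whereas Col4a5, Col9a2 and Col11a2 lie lower with no overlap.

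Among fibrillar chains, those of types I and III, the main fibrils of meninges and vessel walls, were lower after SD. Counts of Col1a1 were 757, 656 and 805 in controls and 423, 372 and 576 after SD in WT mice and 748, 709.8 and 877 in controls and 393, 522 and 675 after SD in AcPb-/- mice. The groups did not overlap, and Col1a1 fell in both (-0.71 ± 0.15, adjusted p = 0.00689 and -0.58 ± 0.18, adjusted p = 0.0425). SD-WT 04 and SD-AcPbKO 04 were the highest SD libraries of their groups.

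Col1a2, which joins Col1a1 in the type I helix, had 1195, 1300.0 and 1484 in controls and 704, 656 and 960.5 after SD in WT mice. Every SD library was below every control, and Col1a2 fell (-0.79 ± 0.13, adjusted p = 0.00282). AcPb-/- libraries had 1065, 1312 and 1647 in controls and 772, 972 and 1098 after SD, with overlap, and the difference was -0.49 ± 0.17, adjusted p = 0.0622. DESeq2 and edgeR did call Col1a2 lower in AcPb-/- mice.

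Col3a1, the chain of reticular fibrils, had 353, 294 and 316 in controls and 185, 145 and 281 after SD in WT mice and 258, 334 and 371 in controls and 177, 255 and 169 after SD in AcPb-/- mice. The groups did not overlap, with SD-WT 04 and SD-AcPbKO 03 close to the lowest control. Col3a1 fell in both (-0.71 ± 0.20, adjusted p = 0.029 and -0.68 ± 0.19, adjusted p = 0.0294). The predicted gene Gm47302 holds 0.42% of the same 100-base stretches.

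Col11a2 codes for a chain of the thin fibrils known from cartilage and had 971, 1249 and 1015 in controls and 838, 765 and 775 after SD in WT mice. The corresponding AcPb-/- counts were 1346, 1148 and 1187 in controls and 636, 941 and 797 after SD. SD libraries lay below controls throughout, and Col11a2 fell in both (-0.44 ± 0.098, adjusted p = 0.00994 and -0.64 ± 0.13, adjusted p = 0.00904). Its partner Col11a1 had 1257, 1709.9 and 1909.9 in controls and 1587, 1829.9 and 1020.5 after SD in WT mice, with overlap and no call (-0.16 ± 0.20, adjusted p = 0.621). Its AcPb-/- counts were 1772, 1436 and 1442 in controls and 2006, 2249 and 1830.3 after SD, and Col11a1 rose (0.39 ± 0.10, adjusted p = 0.0234), the direction opposite to that of Col11a2.

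Col2a1, the chain of cartilage fibrils, was low, with 63.3, 52.1 and 42.5 in controls and 26.3, 34.9 and 31.1 after SD in WT mice, where it fell (-0.75 ± 0.23, adjusted p = 0.0355). Its AcPb-/- counts were 75.7, 42.4 and 34.0 in controls and 29.4, 35.3 and 34.8 after SD, with overlap (-0.52 ± 0.31, adjusted p = 0.256).

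Type V chains regulate the width of type I fibrils, and they did not move as 1 group. Col5a1, the most abundant fibrillar chain, had 2037, 2434 and 1698 in controls and 1857, 1959 and 1323 after SD in WT mice and 3884, 1972 and 1712 in controls and 2433, 2808 and 2669 after SD in AcPb-/- mice. CTL-AcPbKO 03 was the highest of the 12, groups overlapped and neither difference passed (-0.27 ± 0.15, adjusted p = 0.237 and 0.16 ± 0.26, adjusted p = 0.683). Col5a2 had 277, 256 and 245 in controls and 190.0, 186 and 232 after SD in WT mice (-0.36 ± 0.12, adjusted p = 0.0573) and 307, 286 and 287 in controls and 194, 228 and 239.8 after SD in AcPb-/- mice, where it fell (-0.41 ± 0.12, adjusted p = 0.0325). Neither set of Col5a2 counts overlapped. Col5a3 had 154, 219.7 and 148 in controls and 228, 224 and 187 after SD in WT mice (0.31 ± 0.17, adjusted p = 0.208) and 218, 150.1 and 157 in controls and 304, 221 and 258 after SD in AcPb-/- mice, where it rose with the lowest SD library just above the highest control (0.59 ± 0.18, adjusted p = 0.0419).

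Col24a1, a fibrillar chain with expression in cortical neurons, had 763, 899 and 1217 in controls and 1072, 1379 and 581 after SD in WT mice. SD-WT 04 was the lowest and SD-WT 02 the highest of these 6, and no difference passed (0.01 ± 0.27, adjusted p = 0.977). The AcPb-/- counts were 1014, 434 and 502 in controls and 1367, 1642 and 1224 after SD, every SD library was above every control, and Col24a1 rose (1.21 ± 0.28, adjusted p = 0.0128). The control nearest to the SD range was CTL-AcPbKO 03, the one without Xist reads, and without the libraries that have them the difference was 0.47 (adjusted p = 0.533). Col27a1, the remaining fibrillar chain, ranged from 330.2 to 542 and did not pass in either genotype.

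Of the other chains, all 3 chains of type IX, which coats thin fibrils, were lower after SD. Col9a2 had 314, 362 and 359 in controls and 202, 181 and 239 after SD in WT mice and 374, 362 and 323 in controls and 197, 226 and 198 after SD in AcPb-/- mice. No SD library reached a control, and Col9a2 fell in both (-0.74 ± 0.13, adjusted p = 0.00304 and -0.76 ± 0.11, adjusted p = 0.00226). Col9a3 had 500.0, 456 and 357 in controls and 264, 232 and 258 after SD in WT mice and 445, 406 and 391 in controls and 166, 231 and 338 after SD in AcPb-/- mice, where SD-AcPbKO 04, the library with choroid plexus RNA, was the highest SD library. Col9a3 fell in both (-0.79 ± 0.13, adjusted p = 0.00264 and -0.81 ± 0.22, adjusted p = 0.0277), and 234 bases of its exons overlap Tcfl5 on the other strand.

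Per kb of exon Col9a1 was the lowest of the type, at 7.29 against 89.8 for Col9a2. Its counts were 32.9, 54.9 and 32.4 in controls and 22.2, 19.1 and 23.7 after SD in WT mice and 49.6, 72.4 and 50.9 in controls and 27.9, 27.5 and 29.8 after SD in AcPb-/- mice. The groups did not overlap, and Col9a1 fell in both (-0.82 ± 0.26, adjusted p = 0.0439 and -0.97 ± 0.23, adjusted p = 0.0149).

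Other fibril-associated chains went both ways. Col20a1 had 465, 441 and 425 in controls and 613, 583 and 639.8 after SD in WT mice and 427, 286 and 349 in controls and 465, 542 and 560.5 after SD in AcPb-/- mice. Its SD libraries lay above the controls of their genotype, and Col20a1 rose in both (0.46 ± 0.084, adjusted p = 0.00361 and 0.58 ± 0.15, adjusted p = 0.0215). Col16a1 had 1178, 1334 and 1269.6 in controls and 962, 913 and 995 after SD in WT mice, where it fell with no overlap (-0.40 ± 0.073, adjusted p = 0.00393), and 1704, 1299.5 and 1361 in controls and 1110.4, 1468 and 1185 after SD in AcPb-/- mice, with overlap (-0.21 ± 0.13, adjusted p = 0.267). Col22a1, known from tissue junctions, had 134, 146 and 102 in controls and 73.5, 70.5 and 91.8 after SD in WT mice and fell (-0.68 ± 0.19, adjusted p = 0.0225). Its AcPb-/- counts were 196, 147 and 113 in controls and 77.4, 99.5 and 131 after SD, and the groups overlapped (-0.55 ± 0.25, adjusted p = 0.14).

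Col14a1, which binds fibril surfaces, had 132, 73.2 and 77.1 in controls and 83.6, 52.3 and 57.0 after SD in WT mice, with overlap (-0.52 ± 0.26, adjusted p = 0.176). In AcPb-/- mice it had 124, 125 and 122 in controls and 68.1, 79.8 and 83.7 after SD and fell with no overlap (-0.67 ± 0.16, adjusted p = 0.0141). Col12a1, a related chain, had 824, 1013 and 951 in controls and 962, 1164 and 943 after SD in WT mice (0.14 ± 0.10, adjusted p = 0.38) and 1009.7, 729 and 913 in controls and 1168, 1459.9 and 1029 after SD in AcPb-/- mice. It rose in the latter with its lowest SD library close to the highest control (0.46 ± 0.15, adjusted p = 0.0486). The most abundant chain of this kind, Col19a1, had 2548, 3306 and 3212 in controls and 2793, 3169 and 2712 after SD in WT mice and 3217, 3529.6 and 3564 in controls and 2949, 3165 and 2821 after SD in AcPb-/- mice. Neither difference passed (-0.06 ± 0.10, adjusted p = 0.712 and -0.20 ± 0.067, adjusted p = 0.0528), though its AcPb-/- groups did not overlap.

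Among network chains, Col8a2 had the largest change of the 19 in WT mice. Col8a1 and Col8a2 form the type VIII lattice known from vessel walls and the cornea. Col8a2 counts were 158, 207 and 216 in controls and 60.0, 50.6 and 84.4 after SD in WT mice, each SD library well below each control, and Col8a2 fell (-1.58 ± 0.21, adjusted p = 0.000899). Counts in AcPb-/- mice were 167, 162 and 183 in controls and 87.5, 111 and 146 after SD, also with no overlap, but the difference narrowly missed the threshold (-0.60 ± 0.19, adjusted p = 0.0512) and passed by DESeq2 and edgeR. Col8a1 ranged from 275 to 426 and did not pass in either genotype (-0.11 and 0.05).

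Type VI chains form beaded filaments near basement membranes. The most abundant, Col6a1, had 2834, 3202 and 2229.6 in controls and 1925, 3145 and 1877 after SD in WT mice and 4034, 1923 and 1887 in controls and 2784, 4219 and 3273 after SD in AcPb-/- mice, with wide overlap and no call (-0.28 ± 0.19, adjusted p = 0.314 and 0.47 ± 0.28, adjusted p = 0.253). Col6a3 had 204, 214 and 179.9 in controls and 146, 116 and 156 after SD in WT mice, where it fell with no overlap (-0.52 ± 0.15, adjusted p = 0.0262), and 205, 208 and 171 in controls and 139, 244 and 182 after SD in AcPb-/- mice, with overlap (-0.08 ± 0.20, adjusted p = 0.801). Col6a5 passed in WT mice (-1.32 ± 0.39, adjusted p = 0.0301), but its counts were 89.9, 70.4 and 36.9 in controls and 39.1, 14.9 and 23.7 after SD and overlapped, and 2.4% of its stretches of 100 bases also occur in Col6a6. Its AcPb-/- counts were 86.1, 30.0 and 24.1 in controls and 31.7, 29.4 and 53.2 after SD (-0.11 ± 0.46, adjusted p = 0.884). Col6a2, Col6a4 and Col6a6 did not pass in either genotype.

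Col25a1, a transmembrane collagen of neurons whose shed part binds amyloid, had 2587, 2789 and 2787 in controls and 3028, 3091 and 3191 after SD in WT mice and 2214, 2302 and 2025 in controls and 2593, 2511 and 2779.6 after SD in AcPb-/- mice. The groups did not overlap and the change was small, with Col25a1 higher after SD in both (0.19 ± 0.059, adjusted p = 0.0389 and 0.27 ± 0.07, adjusted p = 0.0205). Col26a1, an ungrouped chain, had 556, 747 and 688 in controls and 431, 451 and 541 after SD in WT mice and 829.7, 749 and 1029 in controls and 606, 607 and 493 after SD in AcPb-/- mice. It lay lower after SD with no overlap and fell in both (-0.48 ± 0.13, adjusted p = 0.0192 and -0.60 ± 0.13, adjusted p = 0.0111). Col7a1, the chain of anchoring fibrils under epithelia, had 258, 258 and 282 in controls and 357, 323 and 297 after SD in WT mice (0.29 ± 0.11, adjusted p = 0.0788) and 253, 217 and 232 in controls and 283, 315 and 294 after SD in AcPb-/- mice, where it rose (0.35 ± 0.11, adjusted p = 0.0469).

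The calls differed in how far they rested on single libraries. In WT mice, 11 chains passed whichever library was left out: Col1a1, Col1a2, Col4a1, Col4a2, Col4a5, Col8a2, Col9a2, Col9a3, Col11a2, Col16a1 and Col20a1. The count was 11 without CTL-WT 02, and 12 without either SD-WT 01 or SD-WT 02. The other 8 calls, of Col2a1, Col3a1, Col6a3, Col6a5, Col9a1, Col22a1, Col25a1 and Col26a1, were all lost without CTL-WT 02 and without SD-WT 02, and 7 of them, all but Col6a5, without SD-WT 01. Without CTL-WT 01 the calls of Col2a1, Col3a1, Col6a3, Col6a5, Col22a1 and Col25a1 were lost, without CTL-WT 03 those of Col3a1, Col25a1 and Col26a1, and without SD-WT 04 those of Col2a1, Col6a5 and Col9a1.

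For AcPb-/- mice, 5 chains passed in all such fits, namely Col4a2, Col4a5, Col9a2, Col11a2 and Col26a1. The count was 6 without SD-AcPbKO 02, 7 without CTL-AcPbKO 04, 9 without CTL-AcPbKO 05 and 22 without CTL-AcPbKO 03, and without SD-AcPbKO 04 it was 14. Without CTL-AcPbKO 03 the controls left all have Xist reads, so SD and those reads coincide in that fit. Fewer libraries also lower the power for all genes, whose shares in these fits are not given here. Calls of Col1a1, Col3a1, Col5a2, Col5a3, Col7a1, Col9a3, Col11a1, Col12a1 and Col25a1 were lost without SD-AcPbKO 02, without CTL-AcPbKO 05 and in further fits. Of the 6 such fits, Col1a1, Col7a1 and Col9a3 passed in 1 and Col25a1 in 3. Col3a1, Col5a2, Col5a3, Col11a1 and Col12a1 passed in 2. Those of Col9a1 and Col14a1 were lost without SD-AcPbKO 02 or CTL-AcPbKO 04, and that of Col20a1 without CTL-AcPbKO 04, SD-AcPbKO 03 or SD-AcPbKO 04. Col24a1 lost its call without SD-AcPbKO 02 alone of these 6 libraries. Col4a2, Col4a5, Col9a2 and Col11a2 passed in all 12 fits of both genotypes.

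The SD comparisons of the 2 genotypes share no library. In both, however, the libraries with Xist reads are all controls and the SD libraries have more reads. SD cannot be told apart from these in either comparison. Of the chains called in each, 11 were called in both, with the same sign, which is 57.9% of the 19 in WT mice and 61.1% of the 18 in AcPb-/- mice. Over all genes these shares were 74.6% and 68.7%. Col4a2, Col20a1 and Col25a1 were the 3 higher in both. Col1a1, Col3a1, Col4a5, Col9a1, Col9a2, Col9a3, Col11a2 and Col26a1 were the 8 lower in both. Of the 44 chains, 37 (84.1%) had the same sign in both genotypes, against 79.6% of all genes. Whether a chain called in 1 genotype differed from the other was tested by the interaction below.

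**Figure D3:**
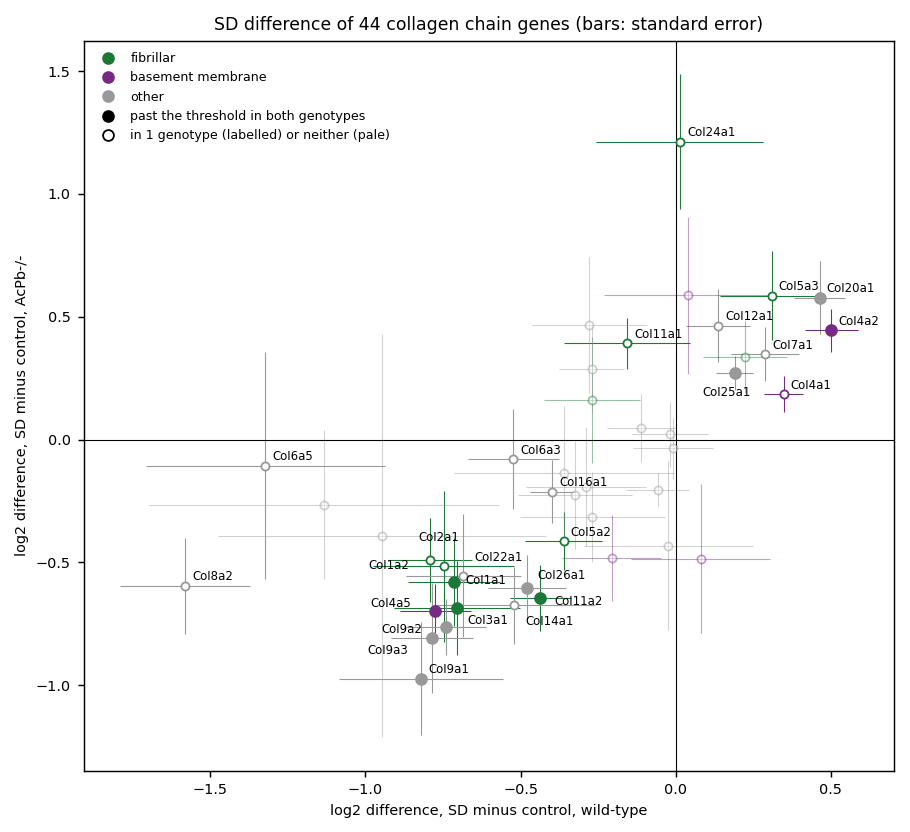
Log2 difference between SD and control in WT (horizontal) and AcPb-/- mice (vertical) for 44 collagen chain genes, with bars for standard errors, colours for the class and filled points for the 11 past the threshold in both genotypes. All 11 filled points lie where both differences have the same sign, and Col24a1 stands apart at 0.01 in WT and 1.21 in AcPb-/- mice.

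Between genotypes, no collagen chain passed by limma. Comparing undisturbed AcPb-/- with undisturbed WT mice, 0 of 44 passed, where 0.0197% of all genes did, and 3 chains had an unadjusted p under 0.05 against 8.53% of genes. DESeq2 called 1 chain, Col25a1, and 0.513% of all genes, and edgeR 0 chains and 0.0395% of genes. Col25a1 counts of 2214, 2302 and 2025 in AcPb-/- controls were below the 2587, 2789 and 2787 of WT controls with no overlap, and the limma difference was -0.32 ± 0.064, adjusted p = 0.254. Leaving out CTL-AcPbKO 03, limma called Col24a1, at -1.01 with an adjusted p of 0.022. The library left out had 1014 counts of Col24a1, within the 763 to 1217 of the WT controls. It is the only AcPb-/- control without Xist reads.

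After SD, AcPb-/- mice were compared with WT mice, and 0 of 44 chains passed, where 0.0145% of all genes did. The unadjusted p was under 0.05 for 10 chains (22.7%) against 6.13% of all genes, and 12 chains did not overlap between the groups (27.3%) against 11.4%. The difference was positive for 35 of the 44 chains, with a median of 0.25 over the chains and 0.002 over all genes. DESeq2 called 2 chains, Col5a1 and Col6a2, and 0.48% of all genes, and edgeR 0 chains and 0.0436% of genes. Col5a1 had 2433, 2808 and 2669 in AcPb-/- mice and 1857, 1959 and 1323 in WT mice after SD (0.64 ± 0.13, adjusted p = 0.254). For Col6a2 these were 1286, 1489 and 1232 and 945, 1032 and 827 (0.52 ± 0.10, adjusted p = 0.209). Both chains were higher in every AcPb-/- library than in any WT library after SD, at an adjusted p by limma above the threshold.

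The interaction, the SD difference in AcPb-/- mice minus that in WT mice, passed for 0 of 44 chains by limma, by DESeq2 and by edgeR, where 0% of all genes passed by limma, 0.00477% by DESeq2 and 0% by edgeR. An unadjusted p under 0.05 was found for 3 chains, Col24a1, Col6a2 and Col8a2, against 4% of all genes. The values were 1.20 ± 0.46, adjusted p = 0.986 for Col24a1, 0.56 ± 0.24, adjusted p = 0.986 for Col6a2 and 0.98 ± 0.31, adjusted p = 0.986 for Col8a2. Hence none of the chains called in 1 genotype was shown to respond differently from the other genotype.

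Ratios of reads per kb between chains of the same helix or lattice show how partners moved relative to each other. The ratio of Col8a1 to Col8a2 was 1.12, 0.901 and 0.923 in WT controls and 2.63, 3.38 and 2.30 after SD. Among AcPb-/- mice it was 1.03, 1.38 and 1.34 and 2.38, 2.13 and 1.44. The ratio was higher after SD with no overlap in both genotypes, so the lattice partners changed unequally. The ratio of Col4a1 to Col4a2 was 0.702, 0.678 and 0.728 in WT controls and 0.619, 0.593 and 0.685 after SD, which overlapped. In AcPb-/- mice it was 0.682, 0.741 and 0.728 in controls and 0.579, 0.623 and 0.595 after SD, lower without overlap. The ratio of Col4a5 to Col4a6 was 3.46, 2.86 and 2.30 in WT controls and 2.06, 1.91 and 1.78 after SD, lower without overlap, whereas the AcPb-/- groups overlapped. For the low pair Col4a3 and Col4a4 the ratio overlapped in WT mice, and in AcPb-/- mice it was 0.942, 0.479 and 0.852 in controls and 1.67, 1.85 and 1.25 after SD, higher without overlap. The type I ratio overlapped, with Col1a1 over Col1a2 at 1.20, 0.956 and 1.03 in WT controls and 1.14, 1.07 and 1.14 after SD. The groups also overlapped in both genotypes for Col5a1 over Col5a2, Col6a1 and Col6a3 over Col6a2, and Col9a1 and Col9a3 over Col9a2. With 3 libraries a group no exact permutation test could pass the threshold, and none was run on these ratios.

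**Figure D4:**
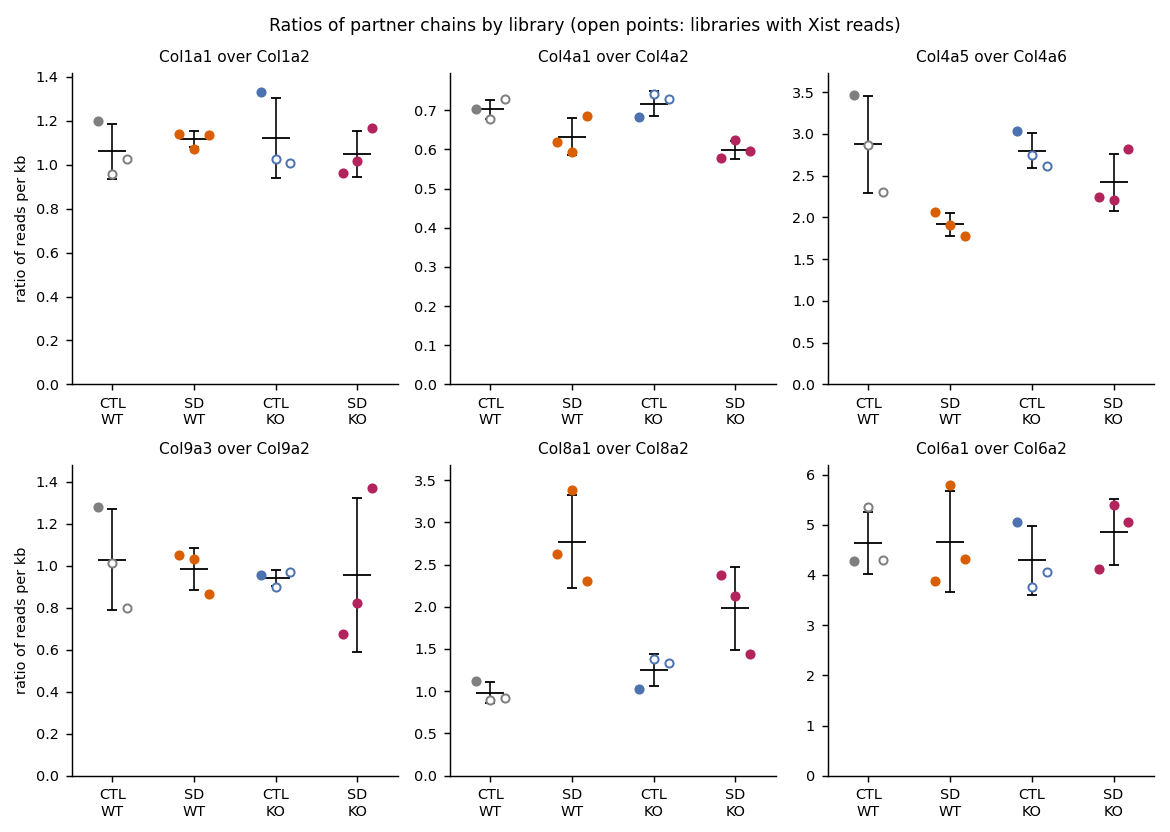
Ratio of reads per kb of exon between partner chains in the 12 libraries (axes from 0), with 3 points per group, open for libraries with Xist reads, and bars for the mean ± standard deviation. Col8a1 over Col8a2 lies higher after SD in both genotypes, and Col1a1 over Col1a2 overlaps in both.

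Genes whose proteins share the basement membrane with type IV collagen were lower after SD where they passed. Of 16 such genes, 0 rose and 9 fell in WT mice, and 0 rose and 7 fell in AcPb-/- mice, with medians of -0.26 and -0.29. These are 56.2% and 43.8% of the list, against 25.4% and 27.4% of all genes. In both genotypes these included Lama4 and Lamb2, laminin chains of vessel walls, Nid2, which links laminin to type IV collagen, and Agrn, a heparan sulfate proteoglycan. Means of Lama4 were 795 ± 35.4 in WT controls and 596 ± 33.4 after SD (mean ± standard deviation, n = 3), and it fell (-0.42 ± 0.079, adjusted p = 0.00463 in WT and -0.56 ± 0.083, adjusted p = 0.00222 in AcPb-/- mice). Lamb2 fell too (-0.35 ± 0.074, adjusted p = 0.00744 and -0.58 ± 0.088, adjusted p = 0.00238). Col4a1 and Col4a2 thus stood at positive differences in WT mice beside 9 partners that were lower. Lama5 and Lamc3, named like Nid2 after their values were seen, also fell in both genotypes. With a term for libraries with Xist reads, 7 partners were lower in WT and 8 in AcPb-/- mice, and without those libraries 0 and 2 were. With 1 library left out, 4 to 8 were lower in WT and 5 to 8 in AcPb-/- mice.

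**Figure D5:**
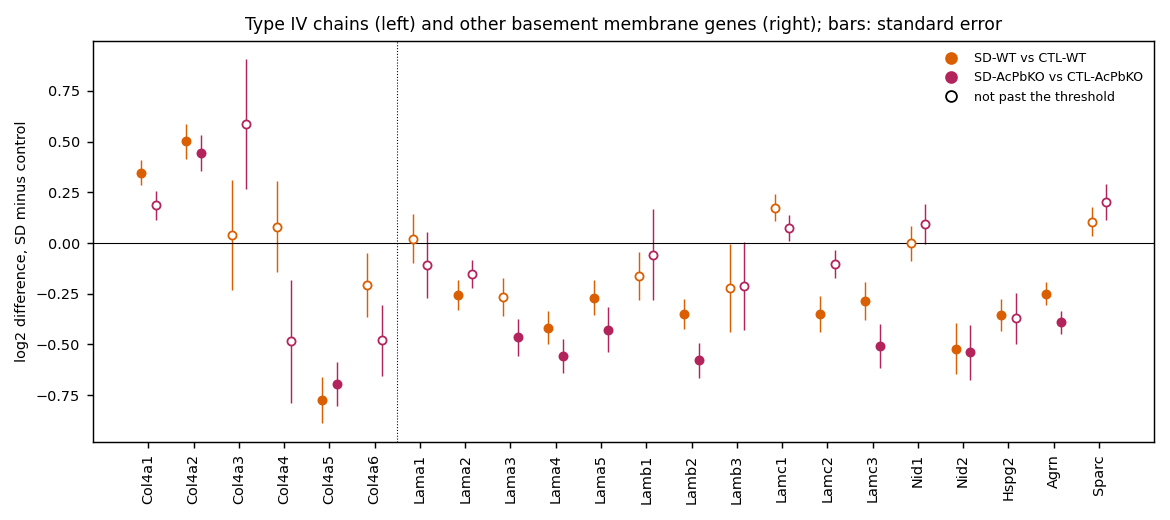
Log2 difference between SD and control for the 6 type IV chains and 16 other basement membrane genes in WT and AcPb-/- mice, with bars for standard errors and open points where the adjusted p was 0.05 or above. Col4a1 and Col4a2 lie above 0 in both genotypes, and the filled points among the 16 other genes all lie below 0.

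Some of the enzymes that modify collagen chains in the endoplasmic reticulum were called. Of 21 genes for modification, folding and export, 7 rose and 0 fell in WT mice, whereas 4 rose and 3 fell in AcPb-/- mice. That is 33.3% in each, against 25.4% and 27.4% of all genes, and 14 of the 21 did not pass, with medians of -0.026 and 0.038. P4ha1 and P4ha2, the catalytic chains of the prolyl 4-hydroxylases that stabilise the triple helix, rose in both genotypes. P4ha1 means were 2015 ± 212 in WT controls and 2768 ± 243 after SD (0.46 ± 0.088, adjusted p = 0.00471), and 1794 ± 206 and 2681 ± 9.71 in AcPb-/- mice (0.59 ± 0.082, adjusted p = 0.00176). P4ha2 differences were 0.48 ± 0.086, adjusted p = 0.00367 in WT and 0.57 ± 0.078, adjusted p = 0.00161 in AcPb-/- mice. P3h3, a relative of the prolyl 3-hydroxylases, rose in both (0.42 ± 0.071, adjusted p = 0.0027 and 0.43 ± 0.094, adjusted p = 0.0113). P3h4 (-0.41 ± 0.093, adjusted p = 0.0134) and Klhl12 (-0.23 ± 0.06, adjusted p = 0.0219), which takes part in collagen export, fell in AcPb-/- mice. The chaperone of procollagen, Serpinh1, did not pass (-0.04 and 0.07). With a term for libraries with Xist reads the WT count was 4 higher and 2 lower, and without those libraries it was 1 and 0, against 2 and 0 in AcPb-/- mice. Leaving out 1 library gave 4 to 8 higher and 0 to 3 lower in WT mice, the 3 without SD-WT 04. In AcPb-/- mice it gave 2 to 5 higher and 0 to 3 lower. Among 13 genes of propeptide removal and cross-linking, Adamts3, a procollagen peptidase, was the single call in both genotypes and fell (-0.42 ± 0.11, adjusted p = 0.023 and -0.55 ± 0.068, adjusted p = 0.0012). This is 7.69% of the list in each genotype, below the share of all genes. Without the libraries with Xist reads 0 of the 13 passed in either genotype.

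Of the collagen receptors, 10 were tested in WT mice and 9 in AcPb-/- mice, and 2 rose and 2 fell in both, with 6 and 5 not called. That is 40% and 44.4% of those tested, against 25.4% and 27.4% of all genes. The integrin chains Itga10 (0.48 ± 0.13, adjusted p = 0.0221 and 0.85 ± 0.17, adjusted p = 0.00765) and Itga11 (0.74 ± 0.19, adjusted p = 0.0183 and 0.78 ± 0.22, adjusted p = 0.0294) rose. Ddr1, a receptor tyrosine kinase for collagen in oligodendrocytes and other cells, fell (-0.51 ± 0.069, adjusted p = 0.00105 and -0.47 ± 0.082, adjusted p = 0.00444), as did Mrc2, which takes up collagen fragments (-0.87 ± 0.13, adjusted p = 0.00175 and -0.54 ± 0.14, adjusted p = 0.0242). In WT mice the higher calls rested on single libraries, and so did that of Itga11 in AcPb-/- mice. With any 1 library left out, at most 1 receptor was higher in WT mice, and 0 were without CTL-WT 02 or SD-WT 01. Of the 6 such fits in each genotype, Itga11 passed in 2 in WT and 1 in AcPb-/- mice, Itga10 in 2 and 6, Mrc2 in 6 and 2, and Ddr1 in 6 and 6. Over all alternatives the difference of Itga11 ran from 0.28 to 0.97 in WT and from 0.33 to 0.99 in AcPb-/- mice. Without the libraries with Xist reads, 1 receptor was higher and 1 lower in each genotype.

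Among 12 genes of collagen degradation and its inhibitors, 2 rose and 1 fell in WT mice, and 3 rose and 1 fell in AcPb-/- mice. That is 25% and 33.3% of the list, near the 25.4% and 27.4% of all genes. Timp1, an inhibitor of matrix metalloproteinases, had means of 53.7 ± 13.7 in WT controls and 115 ± 39.5 after SD, and of 45.7 ± 7.44 and 165 ± 19.5 in AcPb-/- mice. Timp1 rose in both (1.07 ± 0.27, adjusted p = 0.0157 and 1.84 ± 0.19, adjusted p = 0.000716). Timp4, of the same family, also rose (0.30 ± 0.085, adjusted p = 0.0275 and 0.35 ± 0.11, adjusted p = 0.0377), Mmp15 fell in WT mice (-0.34 ± 0.081, adjusted p = 0.0133) and Ctsk fell in AcPb-/- mice (-0.59 ± 0.18, adjusted p = 0.0403). Leaving out 1 library gave 1 to 3 of the 12 higher and 0 to 1 lower in each genotype. Without the libraries with Xist reads, 0 passed in WT mice, and 2 were higher in AcPb-/- mice. In both genotype comparisons and the interaction, 0 genes of these 5 lists passed.

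Markers of the cells that make collagen were read beside these results. Shares of each list that passed are set against 25.4% of all genes in WT and 27.4% in AcPb-/- mice. Of 14 fibroblast genes of meninges and vessels, none of them a collagen, 3 rose and 3 fell in WT mice (42.9%). In AcPb-/- mice 2 rose and 1 fell (21.4%). Their summed normalized count was 16116 to 16309 in WT controls and 16409 to 18637 after SD. In AcPb-/- mice it was 15010 to 19771 and 17996 to 20502, with 0 genes without reads in a library. The largest part of this sum was Fn1, at 5197 to 5296 in WT controls and 6209 to 7159 after SD, so the sum does not weigh the genes equally. The median difference of the 14 was -0.23 in WT and -0.18 in AcPb-/- mice. Mgp (0.55 and 0.73) and Fn1 (0.32 and 0.51) rose in both genotypes. Slc13a4 (-0.56) and Aldh1a2 (-0.54) fell in WT mice, as Col1a1 did, and were at -0.35 and -0.54 without passing in AcPb-/- mice, where Slc6a20a fell (-0.45). With 1 library left out, 2 to 5 of the 14 were lower in WT mice, the 5 without CTL-WT 01, and 0 to 5 in AcPb-/- mice, the 5 without CTL-AcPbKO 03. Each of these fits with 5 lower keeps only controls with Xist reads. Of 9 mural cell genes, 3 rose and 1 fell in WT (44.4%) and 2 rose and 1 fell in AcPb-/- mice (33.3%). Of 8 endothelial genes, 3 rose and 1 fell in both (50% in each). Acta2, the actin of smooth muscle (0.98 and 0.62), and Ly6c1 of endothelium (0.72 and 0.61) rose in both, while Notch3, a receptor of mural cells (-0.36 and -0.63), and Cldn5, a tight junction protein (-0.38 and -0.77), fell. Of 7 choroid plexus genes 1 rose in WT mice (14.3%) and 0 passed in AcPb-/- mice. Among 8 striatal genes 2 fell in WT mice (25%) and 0 passed in AcPb-/- mice, with the highest sum, 18229, in CTL-WT 01. The 2 rested on single libraries, since the count was 0 without CTL-WT 01, CTL-WT 02, SD-WT 01 or SD-WT 02, 1 without SD-WT 04 and 5 without CTL-WT 03. Of 7 genes of cortical excitatory neurons, 2 rose and 2 fell in WT (57.1%) and 2 rose and 1 fell in AcPb-/- mice (42.9%). Their sums were 76656 to 103339, so the cortex was present in every library. Without the libraries with Xist reads, 1 endothelial and 1 cortical gene were higher in each genotype, 2 fibroblast genes were higher in AcPb-/- mice, and 0 others of these 6 lists passed. The part of these markers in the collagen results was not tested.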

How the data were processed

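The authors sequenced RNA of the mouse somatosensory cortex in 2 genotypes, undisturbed or after SD. Per the labels, reads were aligned to mm10 with HISAT2 (version 2.2.1), counted per gene (the labels name featureCounts, the methods HTSeq) and compared with DESeq2 (version 1.31.16). The deposited signal per library, and its mean, is the number of reads on a gene over the size factor of that library. The authors' log2 fold changes, a Wald score and the p-value columns are deposited too. These columns of the authors' comparisons were not used here.

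Reads were recovered by multiplying out the size factors. Of 732630 values, 100.0% came within 0.01 of a whole read, and 0 counts differed between the 5 tables. No replicates were copies of each other, since all differed by more than sampling noise. Totals on genes were 26504840 to 71857505 reads, and their depth limits chains with few reads.

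Because deposited values are normalized, groups were compared by limma (version 3.58.1 in R 4.3.3) with a trended variance, on the log2 of the normalized count plus 1. Each fit took all genes that had reads in any of its libraries, adjusted by Benjamini-Hochberg, with a threshold of 0.05. Differences are on that scale, which understates changes of low genes. Printed counts were normalized over the 12 libraries together. The interaction used the same joint values. Alternatives were count tests of the recovered reads in edgeR (version 4.0.16) and in DESeq2 (version 1.42.0), TMM factors, other pseudocounts, a minimum mean count of 10, thinning to the smallest total, all groups in 1 fit, a term for or removal of libraries with over 1000 Xist reads, a block for replicate numbers, and omission of single libraries. Replicate numbers pair no mice in the labels, so the main fits are unpaired. Same-numbered libraries correlated at -0.14 to 0.10 in the SD comparisons. Between the genotypes they correlated at 0.22 and 0.23 after SD and at -0.43 in undisturbed mice. Only the main limma fits were run on simulated data, and the alternatives were not.

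Members are named with their values if past the threshold in any comparison or among the 3 most abundant chains of a class, and other lists by count with the lowest p in each direction. Further genes of the lists were named after their values were seen. The members and lists were chosen with earlier results of these data known. Exons and coordinates are from GENCODE on GRCm38, and promoters from RefSeq on GRCm38.p6. Python 3.11.15, NumPy 2.4.6, pandas 2.3.3 and matplotlib 3.10.9 were used.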

Additional observations from a re-analysis of the deposited data

How the results depend on the processing

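In WT mice the count of 19 chains after SD was 12 with a term for libraries with Xist reads, 2 without those libraries, and 11 to 18 with 1 library left out. In AcPb-/- mice the count of 18 was 11, 3 and 6 to 22 in the same order. With the replicate number as a block, 0 chains passed in each, as did 0 of all genes, with 23 and 10 chains at an unadjusted p under 0.05. The SD groups of the genotypes gave 0 under the block as well, and the numbers are not known to pair mice. No paired analysis was possible because of a single shared number for undisturbed AcPb-/- against WT mice. DESeq2 gave 1 chain there and 2 between the genotypes after SD, and leaving out 1 library gave 0 to 1 in the first. By DESeq2, 5378 and 5820 of all genes passed in WT and AcPb-/- mice after SD, and 5368 and 5682 by edgeR. The cause of these changes was not tested. Shares of all genes are not given here for the fits with the Xist term, without those libraries or with 1 library left out. The changes in those counts are therefore not a result about collagen chains.

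All 19 and all 18 called chains kept their sign in every alternative. Signs turned for chains without a call. In WT mice Col24a1 was at -0.21 with the Xist term and at -0.26 to 0.37 with 1 library left out, and Col11a1 at 0.19 without Xist libraries, 0.22 with the block and -0.33 to 0.090 with 1 library left out. In AcPb-/- mice Col6a3 was at 0.029 with the block and -0.28 to 0.12 with 1 library left out, and Col6a5 at -0.46 to 0.44. Low counts limit Col10a1, Col17a1, Col4a3, Col4a4, Col6a5 and Col6a6, and also the called chains Col2a1 and Col9a1.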
